A study of Mus musculus with 16 samples.

Results

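Genes of Schwann cells and of myelin were followed in mouse aortas exposed to 2 progestins. The set holds 8 genes, Gpm6b, Mbp, Mag, Sox10, Pmp22, Prx, Cnp and Erbb3, out of 28481 genes on the array. Every probe that the array files name after one of them was taken, which gave 19 of 41174 probes, and for each gene the probe with the highest mean level over all 16 arrays was the main probe. The set was put together with results of these arrays known, and Gpm6b was chosen by its measured difference between medroxyprogesterone acetate (MPA) and placebo. Values from the MPA comparison are therefore descriptions without a test, whereas the comparison for norethisterone acetate (NET-A), made on other arrays, carries its adjusted p over all genes tested.

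Per the labels, all samples were aortas of female C57BL/6 mice deficient in ApoE, the apolipoprotein whose loss makes mice prone to atherosclerosis, that had been ovariectomized when 4 to 5 weeks old. A pellet built to release its content over 90 days was placed under the skin 2 weeks later, a high-fat diet was given from then on, and the descending aorta was taken on day 78 to 90. The 4 groups of 4 arrays were MPA, its placebo group, NET-A and its placebo group, and the 2 placebo groups were assigned by the letter M or N in their titles and by the slides they occupied. All 4 groups therefore share the loss of ApoE, of the ovaries and the diet, and no group with ovaries was analysed. The array's Apoe probe was well above background on 16 of 16 arrays, at levels of -0.02 to 0.95 (log2 relative to the 75th percentile of the array), and since it is not given whether the probe lies in the deleted part, it does not check that label. The labels give neither the doses nor a statement that the samples of a group were separate animals, so p-values measure only the spread between these samples.

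Schwann cells are the glia of peripheral nerves, which reach the aorta in its outer coat. Under neuregulin signals from the axon and the transcription factor Sox10 they either wrap large axons in myelin, a stack of membranes held together by a few abundant proteins, or ensheathe bundles of thin axons without myelin, the form that prevails in sympathetic nerves. Several of the genes are not confined to glia: Pmp22 was first found as a growth arrest gene of fibroblasts, and Cnp and Gpm6b are active in many tissues. In a whole aorta, fewer cells of a type and less RNA per cell cannot be told apart.

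The probes differed sharply in whether they were measured at all, and parts of some of their sequences are given below. A gene's main probe was well above background on 16 of 16 arrays for all genes but Sox10, which reached it on 13. Of the other 11 probes, 4 were well above background on none of the 16 arrays and only 1, a Mbp probe, on more than 9. For Gpm6b, Mag, Sox10 and Erbb3 the main probe was also the most downstream one, by 1378 to 17348 bases from the others on the mm9 genome. The stretches below are 30 of the 60 bases of a probe, as the array files give them, with capitals marking AATAAA, the signal that precedes the cut and the poly(A) tail at the end of a transcript. They are shown for Gpm6b, Sox10 and Erbb3, each of which had 1 measured probe beside others mostly at background.
Gpm6b main probe: aaatttttgtaacctaacagtgaatcaata
Gpm6b upstream probe 1: ttctcaaagaataatttttAATAAAaatgt
Gpm6b upstream probe 2: gaaacatcaccattggagtagaaaaggtat
Sox10 main probe: cagcgataccttAATAAAgtacgtagctct
Sox10 upstream probe: tggacatcggggagatcagccacgaggtaa
Erbb3 main probe: gttgcagatacacactcattacaagccaat
Erbb3 upstream probe: cgatgggaagtttgccatctttgtcatgtt

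The Gpm6b main probe lies at chrX:162826731-162826790 on the plus strand, 15666 and 14981 bases downstream of probes 1 and 2, which were well above background on 1 and 0 arrays. The Sox10 main probe lies at chr15:78985505-78985564 on the minus strand, and the second one, 1378 bases upstream, was well above background on 0 arrays. The Erbb3 main probe lies at chr10:128004749-128004808 on the minus strand, and 4 further probes upstream of it reached that mark on 0 to 4 arrays. AATAAA was searched on the probe strand alone over all 60 bases and occurs in 4.78% of all probes. A match describes the letters and not a site in use. Exon, intron and UTR positions were not used here, since no mm9 annotation was at hand.

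Before the values, the label was set against other genes of the lineage. Of 63 related genes in 5 lists, 27 were well above background on all 16 arrays. They included the calcium-binding S100b, listed here as a Schwann marker, the myelination regulator Egr2 and the sodium channel Scn7a of non-myelinating Schwann cells. Over the whole array, 11947 of 28481 genes were well above background on all 16 with a value on every array, not counting the 8 genes. That share is similar, so the count alone is not read as a trait of the lineage. Pmp2, Sox2, Pou3f2, Adam22 and Drp2 were so on 0 of 16 arrays and the Schwann cadherin Cdh19 on 1. Of 6 measured oligodendrocyte markers 0 were well above background on all 16 arrays and 3, Mog, Olig1 and Ermn, on none, while Mobp was so on 12 and Cldn11 on 8. Of 7 melanocyte markers 2, Mitf and Mlana, were so on all 16, Kit on 15, and Tyr and Tyrp1 on none. Of 14 axon and neuron markers 3, Uchl1, Tubb3 and Stmn2, were so on all 16, Npy on 15, and Th and Nefm on none.

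Levels are log2 signals relative to the 75th percentile of the array, so that 0 stands for that percentile, and changes are differences of group means ± standard error. Between 46.3% and 60.6% of spots were well above background on MPA arrays, 51.5% to 56.3% on their placebo arrays, 62.3% to 78.5% on NET-A arrays and 67.4% to 77.8% on their placebo arrays. The dimmest array was MPA replicate 2, with a median signal of 24.1 where the others had 55.0 to 140. Placebo replicate 3 of the MPA experiment stood apart by skeletal muscle genes: Tnnc2, a fast troponin, read 4.30 there and -2.16 to 0.08 on the other 3 placebo arrays. The same array was the highest of its 4 for 5 of the 8 genes, namely Mbp, Mag, Sox10, Cnp and Erbb3, as it was for 17.2% of all genes, and values without it are given below. No spot was saturated, and 0 of 15287 genes passed an adjusted p of 0.05 with MPA, 0 of 21179 with NET-A and 0 of 15174 in the difference between the responses, by limma with Benjamini-Hochberg adjustment. At an unadjusted p under 0.05 there were 954 (6.24%), 1319 (6.23%) and 1038 (6.84%) genes.

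**Figure D1:**
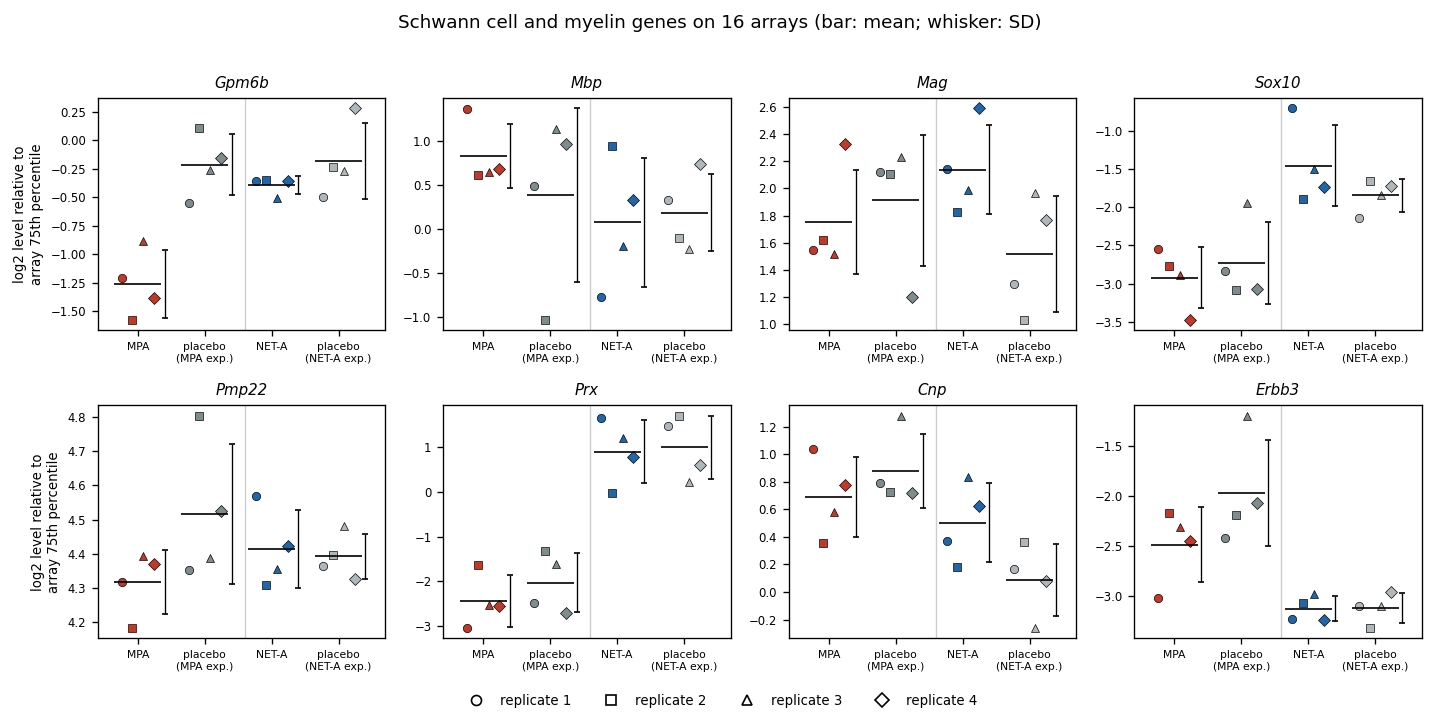
Log2 level of the main probe of each gene (vertical axis, relative to the 75th percentile of the array, own scale for each gene) on the 4 arrays of each group, with marker shapes for replicates, a bar for the mean and a whisker for the SD. For Gpm6b the MPA arrays, at -1.57 to -0.88, lie below all placebo arrays, at -0.55 to 0.11, whereas groups of one experiment overlap for each of the other genes.

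Gpm6b encodes the membrane glycoprotein M6B, a membrane-spanning protein found in glia and neurons and in other tissues. It read -1.21, -1.57, -0.88 and -1.38 in MPA replicates 1 to 4, against -0.55, 0.11, -0.26 and -0.15 in placebo replicates 1 to 4. All MPA arrays were below all placebo arrays, and the difference was -1.05 ± 0.20, a ratio of 0.483. Groups separated in this direction for 1.26% of the genes tested with MPA, and Gpm6b ranked 4 of 15287 by p, which is the value that brought it into the set and supports nothing further. Within slide 1 the difference was -1.17 and within slide 2 it was -0.93, with 2 arrays per group on each, and leaving out any single array gave -1.18 to -0.94. With normexp background correction it was -0.50, and it was -0.55 when all 3 probes were averaged, of which 2 were mostly at background.

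With NET-A, Gpm6b read -0.35, -0.35, -0.51 and -0.35, against -0.50, -0.23, -0.27 and 0.28 in its placebo group. The groups overlapped, and 1 NET-A array lay below the lowest placebo array. The change was -0.21 ± 0.17 (adjusted p = 0.940, limma) and did not pass. It was -0.06 without placebo replicate 4 and down to -0.32 when other single arrays were left out. Within slides 3 and 4, with 1 array of each group, it was 0.14 and -0.27, and within slide 5, with 2 of each, it was -0.36. The response to MPA minus the response to NET-A was -0.84 ± 0.26, given as a description because it contains the MPA values. Over the 16 arrays, with group means removed, Gpm6b followed the mean of 6 macrophage markers with r = 0.67, a description over arrays that share slides and scaling. The correlation used the markers well above background on every array. The whole macrophage list was lower in 7 of 7 genes in both comparisons, with medians of -0.57 for MPA and -0.67 for NET-A, and their summed signal was 48.3 to 57.0 on the 3 MPA arrays with a value for every marker and 68.9 to 125 on placebo arrays. Lgals3 made up 53.9% to 69.2% of it, and the sum of the other markers, 19.3 to 33.1 on the 4 MPA arrays against 27.8 to 46.4 on placebo arrays, overlapped. On the other slides the sum of the whole list was 20.1 to 32.4 on NET-A arrays and 26.0 to 71.9 on placebo arrays. The part of macrophages in the Gpm6b value was not tested.

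Sox10 and Erbb3 stand at the head of the lineage: Sox10 is the transcription factor that Schwann cells need at every stage, and Erbb3 is the receptor subunit that binds neuregulin and signals together with Erbb2. Sox10 read -2.55, -2.77, -2.89 and -3.48 in MPA replicates, against -2.83, -3.08, -1.95 and -3.07 in placebo replicates, and was well above background on 2 and 3 of these arrays. The groups overlapped and differed by -0.19 ± 0.30, and without placebo replicate 3 the difference was 0.07. NET-A replicates read -0.70, -1.89, -1.49 and -1.74, against -2.14, -1.65, -1.84 and -1.72 in placebo replicates. Here the highest value belonged to NET-A replicate 1, the change was 0.38 ± 0.26 (adjusted p = 0.910, limma), and it was 0.13 without that array.

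Erbb3 read -3.03, -2.17, -2.32 and -2.46 in MPA replicates, against -2.42, -2.19, -1.20 and -2.08 in placebo replicates. Placebo replicate 3 was the highest of the 8 arrays, and the difference of -0.52 ± 0.29 shrank to -0.26 without it. NET-A replicates read -3.23, -3.07, -2.99 and -3.24, against -3.10, -3.32, -3.10 and -2.96 in placebo replicates. These 8 values lie within a narrow band, and the change was -0.01 ± 0.13 (adjusted p = 0.997, limma). Erbb2, the signalling partner, gave 0.03 ± 0.14 in the MPA comparison and 0.04 ± 0.23 in the other, and Nrg1, the ligand, was measured in the NET-A experiment alone, with -0.06 ± 0.46.

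Compact myelin is represented by Mbp, which holds the inner faces of the membrane together, and Pmp22, a small membrane protein whose dosage underlies inherited neuropathies. Pmp22 read 4.32, 4.18, 4.39 and 4.37 in MPA replicates, against 4.35, 4.80, 4.39 and 4.53 in placebo replicates. The SD was 0.07 to 0.20 over the 4 groups, and the MPA difference was -0.20 ± 0.15, the groups overlapping. NET-A replicates read 4.57, 4.31, 4.35 and 4.42, against 4.36, 4.40, 4.48 and 4.33 in placebo replicates. The change was 0.02 ± 0.11 (adjusted p = 0.997, limma). A second Pmp22 probe lies on the opposite strand, 29028 bases away, and was well above background on 0 arrays.

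Mbp was read by 3 probes that gave different pictures. The main probe read 1.37, 0.61, 0.65 and 0.68 in MPA replicates, against 0.49, -1.04, 1.13 and 0.96 in placebo replicates. The difference was 0.44 ± 0.44, with placebo replicate 2 the lowest by far, and it was -0.03 without that array and 0.69 without placebo replicate 3. NET-A replicates read -0.78, 0.94, -0.19 and 0.32, against 0.33, -0.10, -0.23 and 0.74 in placebo replicates, a change of -0.11 ± 0.38 (adjusted p = 0.997, limma). Leaving out single arrays gave -0.40 to 0.18.

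A second Mbp probe, printed at 10 spots and 26826 bases downstream, was well above background on 15 of 16 arrays. It read -2.54, -2.96, -2.63 and -2.37 in MPA replicates, against -2.36, -2.22, 1.21 and -2.69 in placebo replicates. A single placebo array, replicate 3, stood above the rest, and the difference of -1.11 ± 0.75 was -0.20 ± 0.20 without it. NET-A replicates read -2.40, -1.11, -1.68 and 1.47, against -2.15, -2.54, -2.42 and -1.97 in placebo replicates. Replicate 4 carried most of that difference, which was 1.34 ± 0.73 (adjusted p = 0.799 over probes, limma) and 0.54 ± 0.31 without it. The remaining Mbp probe, 14337 bases downstream of the main one, was well above background on 9 arrays, and its highest values within each experiment were also those of NET-A replicate 4, at -1.0, and placebo replicate 3 of the MPA experiment, at -1.86.

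The main Mbp probe put neither of these 2 arrays at the top of its experiment, with 0.32 on NET-A replicate 4 and 1.13 on placebo replicate 3. The transcript forms behind each probe were not analysed here.

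**Figure D2:**
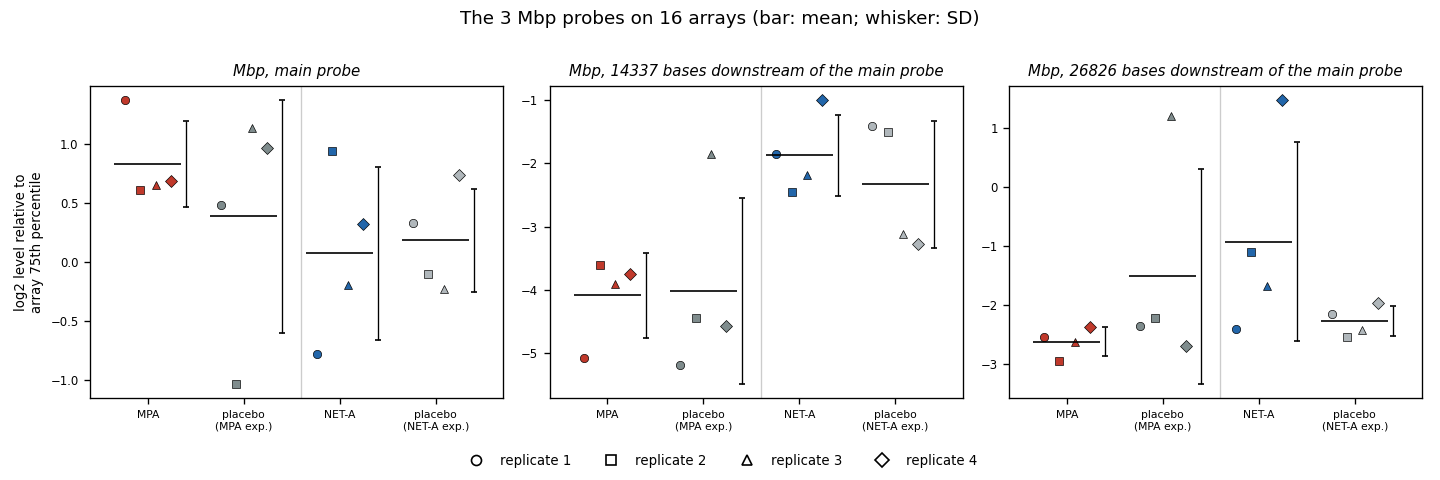
Log2 level of the 3 Mbp probes (vertical axis, relative to the 75th percentile of the array, own scale for each probe) on the 4 arrays of each group, with marker shapes for replicates, a bar for the mean and a whisker for the SD. In the probe farthest downstream, NET-A replicate 4 at 1.47 and placebo replicate 3 of the MPA experiment at 1.21 stand far above the other 14 arrays, at -2.96 to -1.11, and the main probe does not show this.

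Mag, the myelin-associated glycoprotein on the membrane next to the axon, read 1.55, 1.62, 1.52 and 2.32 in MPA replicates, against 2.12, 2.10, 2.23 and 1.20 in placebo replicates. Replicate 4 went against its group on both sides, and the difference was -0.16 ± 0.28. It was -0.40 without placebo replicate 4, -0.35 without MPA replicate 4 and -0.05 without placebo replicate 3. With NET-A the values were 2.14, 1.83, 1.99 and 2.59, against 1.29, 1.03, 1.96 and 1.77 with placebo, and 3 NET-A arrays were above the highest placebo array. The change of 0.62 ± 0.25 was the largest among the 8 main probes with NET-A and did not pass (adjusted p = 0.775, limma; unadjusted p = 0.0360), as 6.23% of all genes had an unadjusted p under 0.05. It was 0.46 to 0.77 when single arrays were left out. With all probes of a gene averaged it was 0.51, against 0.56 for Mbp. A second Mag probe, 7807 bases upstream and well above background on all 8 arrays of the NET-A experiment, gave 0.40 ± 0.36. Its mean was -3.24 in the NET-A placebo group, where the main probe had 1.51. In the MPA experiment it was well above background on 1 MPA array and 0 placebo arrays.

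Cnp, a phosphodiesterase for cyclic nucleotides in the cytoplasmic channels of myelin, had a like pattern. It read 1.04, 0.36, 0.58 and 0.78 in MPA replicates, against 0.79, 0.73, 1.28 and 0.72 in placebo replicates, and the difference was -0.19 ± 0.20, or -0.06 without placebo replicate 3. NET-A replicates read 0.37, 0.18, 0.84 and 0.63, against 0.17, 0.36, -0.26 and 0.08 in placebo replicates. Again 3 NET-A arrays were above the highest placebo array, and the change was 0.42 ± 0.19 (adjusted p = 0.813, limma). Both Mag and Cnp were higher within each of the 3 slides of that experiment, by 0.34 to 0.96 for Mag and by 0.20 to 0.49 for Cnp, with 1 or 2 arrays per group and slide.

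Prx, the scaffold periaxin that ties peripheral myelin to the basal lamina, showed the widest gap between the experiments. It read -3.03, -1.64, -2.53 and -2.55 in MPA replicates, against -2.48, -1.33, -1.62 and -2.69 in placebo replicates, a difference of -0.41 ± 0.38. It was -0.17 without placebo replicate 2 and -0.67 without MPA replicate 2. In the NET-A experiment it read 1.64, -0.03, 1.19 and 0.78, against 1.47, 1.68, 0.22 and 0.59 with placebo. That was a change of -0.10 ± 0.44 (adjusted p = 0.997, limma), and of -0.36 to 0.21 when single arrays were left out. These values split by slide: arrays of both groups read 1.19 to 1.68 on slides 3 and 4 and -0.03 to 0.78 on slide 5. Within slides 3, 4 and 5 the difference was 0.16, -0.49 and -0.03. All 8 arrays of the NET-A experiment lay above all 8 of the MPA experiment. Nfasc, described with the related genes, went the same way, while Scn7a went the other way. The experiments differ in slides and scanner software as well as in mice, and these cannot be told apart.

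Within each experiment the 8 genes did not share a direction with both progestins. All 8 passed the filter on dim probes in both. With MPA 7 were lower and 1 higher, with a median of -0.20 beside -0.0015 for all genes, of which 50.3% were lower and 49.7% higher. The median was -0.35 without placebo replicate 4 and -0.01 with normexp correction. The count was 6 of 8 without placebo replicate 3, 7 of 8 without MPA replicate 2 and 8 of 8 without placebo replicate 2 or with all probes of a gene averaged, and with normexp correction it was 4 of 8, as Prx, Sox10 and Erbb3 turned to 0.34, 0.67 and 0.33. With NET-A 4 were lower and 4 higher, with a median of 0.0049 beside -0.03 for all genes, of which 55.3% were lower and 44.7% higher, and 0 of 8 passed. Mag, Cnp and Sox10, higher with NET-A, differed between the responses (MPA minus NET-A) by -0.78 ± 0.38, -0.60 ± 0.28 and -0.57 ± 0.41, without a test.

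**Figure D3:**
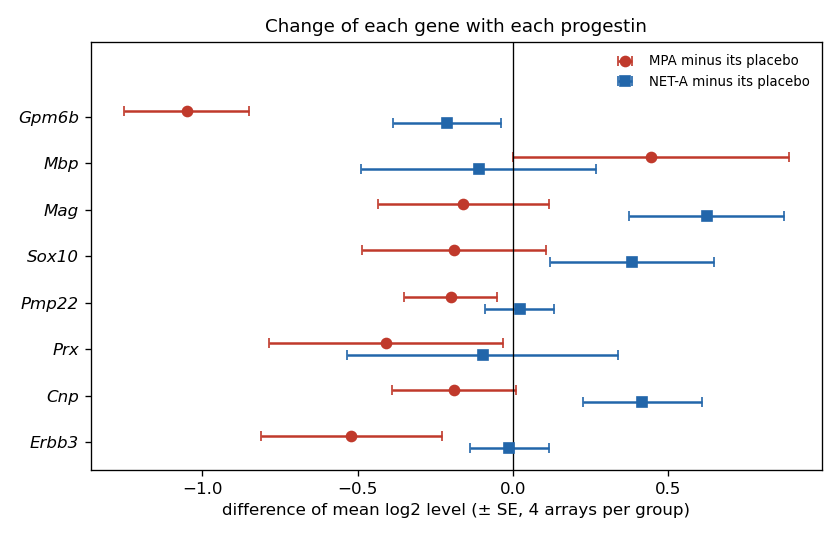
Difference of mean log2 level between each progestin and its own placebo group (horizontal axis, ± SE, 4 arrays per group) for the 8 genes, with circles for MPA and squares for NET-A. Gpm6b with MPA, at -1.05, is the only value whose groups do not overlap, and most other intervals reach or approach 0.

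How the genes moved together from array to array was described by the correlation of each pair. Over 16 arrays, with group means removed, the 28 pair correlations had a median of 0.03, with 16 above 0 and 0 above 0.5. The highest was 0.48 between Gpm6b and Pmp22, and the lowest was -0.75 between Mbp and Pmp22, followed by -0.58 between Mbp and Prx. The median was 0.03 in the MPA experiment and -0.09 in the NET-A experiment. Both negative pairs were present in each experiment, at -0.71 and -0.84 for Mbp and Pmp22 and at -0.57 and -0.62 for Mbp and Prx. With slide and group means both removed the median was 0.13 and 4 pairs were above 0.5, namely Prx with Erbb3 (0.80), Mag with Cnp (0.59), Sox10 with Cnp (0.56) and Gpm6b with Pmp22 (0.51), while Mbp was opposite to Pmp22 (-0.76) and Prx (-0.59). These are descriptions over arrays that share slides and scaling.

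**Figure D4:**
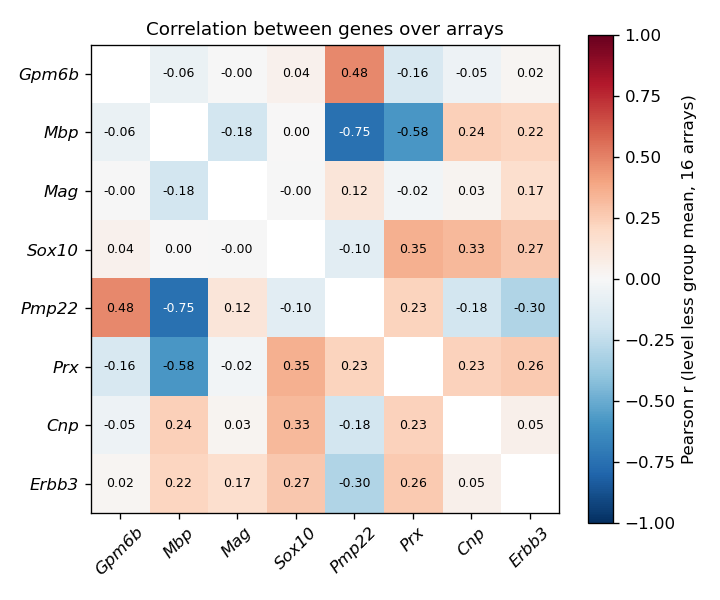
Pearson correlation between the levels of each pair of the 8 genes over 16 arrays, with the group mean removed, as numbers and colours from -1 to 1 on both gene axes. The extremes are 0.48 for Gpm6b with Pmp22 and -0.75 for Mbp with Pmp22.

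Among 11947 genes well above background on every array, those most like a single gene were not other glial genes of the lists. Gpm6b was followed most closely by Ubash3b (r = 0.92), Efemp1 (0.88), which encodes a matrix fibulin, and Dennd2a (0.86). Genes close to Mag included Senp7 (0.78) and Gm5226 (0.77). Sox10 had Cd109 (0.80), Hpx (0.73), which encodes hemopexin, and Urah (0.73) closest. Mbp was nearest to Crybg1 (0.90), Atg4c (0.87) and AI467606 (0.86), and Pmp22 to Serp2 (0.88), Gtpbp3 (0.82) and Ing1 (0.81). The genes closest to Prx were Ereg (0.89), which encodes epiregulin, Gabrr1 (0.89) and Sh3bp4 (0.86), and those closest to Cnp were Gnai2 (0.89), an inhibitory G protein subunit, Gcn1 (0.85) and Car7 (0.84). Erbb3 had an unnamed transcript (0.93), Gemin2 (0.88) and Wdr12 (0.85) closest. These values were picked as the highest among all those genes over 16 arrays, and nothing is read from them. Those nearest to the mean of the 8 genes included Slc39a4 (0.84), an unnamed probe (0.80) and the fast troponins Tnni2 (0.78) and Tnnc2 (0.77). Erbb3 followed the mean of 2 skeletal muscle markers with r = 0.74 and Sox10 with 0.57. On placebo replicate 3 of the MPA experiment Tnnc2 read 4.30, and Erbb3 and Sox10 were the highest of their group. These correlations, and those of the troponins above, were not computed without that array. Erbb3 ran opposite to 5 fibroblast markers (r = -0.70), Mag to 3 axon and neuron markers (-0.62), and Sox10 and Prx to 6 adipocyte markers (-0.56 and -0.53). Gpm6b ran opposite to 2 melanocyte markers (-0.54) and 4 smooth muscle markers (-0.53). These marker correlations were picked as among the largest of those of the 8 genes with the marker lists, and nothing is read from them.

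Of 6 skeletal muscle markers, the 4 kept with MPA were all lower (median -1.91) and the 6 kept with NET-A all higher (median 1.20), and 0 passed. With NET-A Tnnc2 gave 1.26 ± 0.38, and the myosin light chain gene Mylpf, at -2.98 to -1.92 on NET-A arrays and -3.60 to -3.17 on placebo arrays, gave 1.15 ± 0.25 without overlap (adjusted p = 0.594, limma). Such a separation in the higher direction was shown by 1.54% of genes with NET-A. Acta1, the skeletal actin, outshone the others on all arrays but placebo replicate 3 of the MPA experiment. Without Acta1 the summed signal was 0.41 to 0.59 on MPA arrays, against 42.9 on placebo replicate 3 and 0.57 to 2.89 on the other placebo arrays of that experiment. On the other slides it was 1.142 to 4.503 on NET-A arrays and 0.92 to 1.39 on placebo arrays. The part of any of these cell types in the values of the 8 genes was not tested.

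Related genes of the lineage were described from 5 lists chosen with earlier results known. With MPA 38 of 63 passed the filter on dim probes, of which 30 were lower and 8 higher with a median of -0.23, and 0 passed the threshold. Without the filter 48 of 63 were lower, where 54.9% of all genes were. Without placebo replicate 3 the count was 27 of 38, with normexp correction 25 and with all probes averaged 27. With NET-A 55 passed the filter, 28 lower and 27 higher with a median of -0.03, and 0 passed. With normexp correction, which moved the median of all genes to -0.13 in that comparison, 37 of 55 were lower. Markers of axons and neurons moved beside these counts: 4 of 5 kept ones were lower with MPA (median -0.65) and 7 of 8 with NET-A (median -0.25), and 0 passed. Uchl1 alone made up 87.3% to 98.5% of their summed signal. Without it the sum was 0.93 to 1.40 on MPA arrays and 1.28 to 2.35 on placebo arrays, and 1.14 to 1.55 on NET-A arrays and 1.54 to 2.16 on placebo arrays. Uchl1 itself gave -0.07 ± 0.23 with MPA and -0.22 ± 0.25 with NET-A. Tubb3, a tubulin of neurons, was lower without overlap in both, by -0.65 ± 0.25 with MPA and -0.50 ± 0.20 with NET-A, and Npy, a peptide of sympathetic nerves, gave -0.84 ± 0.33 and -1.19 ± 0.33, with an overlap in the MPA comparison alone. Groups separated in the lower direction for 1.26% of all genes tested with MPA and 2.39% with NET-A. The part of axons in the counts of related genes was not tested.

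Among the regulators, 6 of 7 were lower with MPA and 7 of 8 with NET-A, and none passed. Pou3f1, a POU factor that drives Schwann cells towards myelination, gave -1.05 ± 0.46 with MPA and -0.46 ± 0.30 with NET-A. Egr2, the master regulator of myelin genes, gave -0.42 ± 0.19 and -0.27 ± 0.26. Foxd3, a neural crest factor, was measured with NET-A alone, where its arrays at -3.82 to -3.54 lay just below the placebo arrays at -3.54 to -2.92 (-0.38 ± 0.19, adjusted p = 0.828, limma), a separation in the lower direction that 2.39% of genes showed. Sox9 gave -0.35 ± 0.40 and -0.50 ± 0.25.

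Genes of the myelin membrane and its lipids went lower in 7 of 7 kept genes with MPA and higher in 11 of 16 with NET-A. With MPA the 7 included Cmtm5 (-0.78 ± 0.48) and Plekhb1 (-0.41 ± 0.33), and 10 of the 17 genes of the list were too dim to be compared. With NET-A Gal3st1, the sulfotransferase that makes sulfatide, read -4.71 to -4.02, above -4.91 to -4.74 with placebo (0.39 ± 0.17, adjusted p = 0.798, limma), a separation in the higher direction that 1.54% of genes showed. Gal3st1 was well above background on 3 NET-A arrays and 2 placebo arrays. Mal, a raft protein, gave 0.83 ± 0.55 and did not pass.

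Contact with axon and basal lamina is the role of the next list, with 8 of 11 genes lower with MPA and 7 of 14 with NET-A. Cadm3, an adhesion molecule of axons, was lower on the 3 MPA arrays that measured it, at -2.06 to -1.46, than on all placebo arrays, at -1.34 to -0.45 (-0.62 ± 0.26). Separation in the lower direction was seen for 1.26% of genes with MPA. Lgi4, a secreted protein that Schwann cells need for timely myelination, gave -0.55 ± 0.21, and Gldn, a node protein, -0.82 ± 0.40. Dag1, the dystroglycan that binds laminin, went the other way, with 3.13 to 3.59 on MPA arrays above 2.31 to 3.09 on placebo arrays (0.54 ± 0.21), a separation that 2.58% of genes showed in that direction. With NET-A the node protein Nfasc read -0.74, -1.38, 0.15 and -0.95, against -1.45, -1.96, -1.59 and -1.48 with placebo. All NET-A arrays were above all placebo arrays, a separation in the higher direction that 1.54% of genes showed. The change of 0.89 ± 0.31 did not pass (adjusted p = 0.700, limma).

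The remaining lists hold receptors with their ligands and general Schwann markers. Kcna1, a potassium channel of axons beside the nodes, read -0.48, -0.72, 0.28 and -0.03 in MPA replicates, against 0.55, 0.86, 1.59 and 0.29 in placebo replicates. The groups touched without overlap, 0.28 against 0.29 at their nearest, and the difference was -1.06 ± 0.31, while with NET-A it was -0.10 ± 0.16. With MPA, 1.26% of genes separated in the lower direction. Ednrb, the endothelin B receptor of Schwann cell precursors and of endothelium, gave -0.69 ± 0.30 and 0.07 ± 0.26. S100b, listed here as a general marker, gave 0.05 ± 0.24 and -0.34 ± 0.38, and Scn7a -0.08 ± 0.22 and -0.03 ± 0.16. In NET-A replicates 1 to 4 S100b read 1.02, 2.79, 1.54 and 2.50, while the adipocyte marker Cidea read 5.26, 7.58, 5.31 and 6.63. On placebo arrays of the MPA experiment S100b was highest on replicate 3, at 3.48, and Cidea on replicate 2, at 8.28. The part of adipocytes in the S100b values was not tested. The filament gene Nes gave 0.06 ± 0.23 and 0.11 ± 0.18, and the matrix gene Matn2 -0.27 ± 0.20 and -0.15 ± 0.13.

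**Figure D5:**
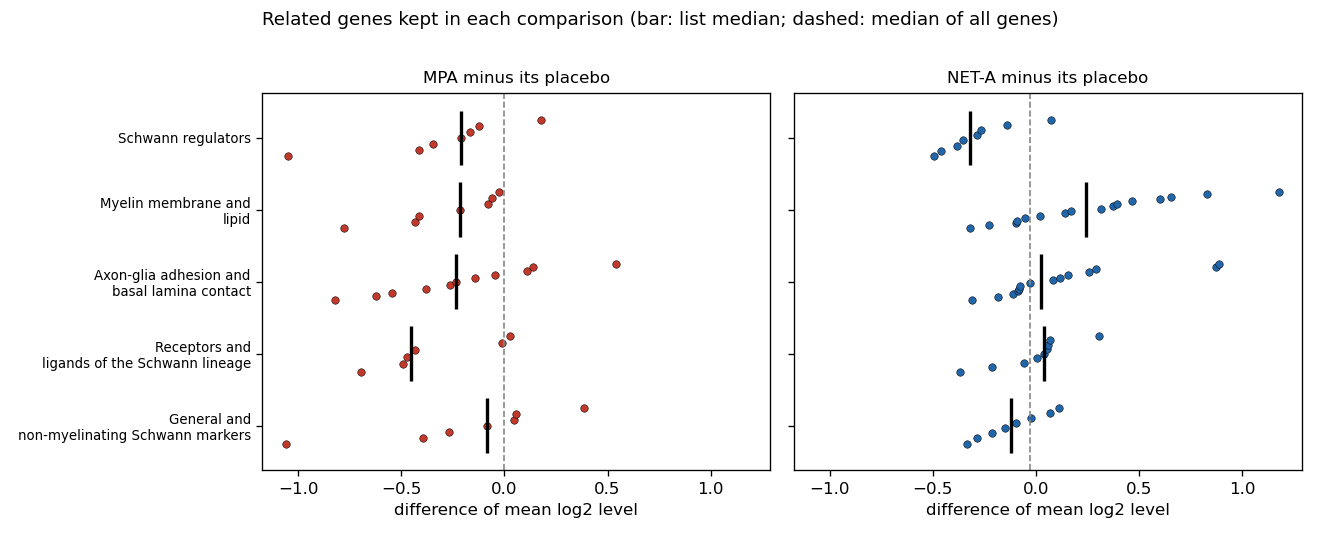
Difference of mean log2 level between each progestin and its own placebo group (horizontal axis) for the related genes that passed the filter in 5 lists (vertical axis), with 1 point per gene, a bar for the list median and a dashed line for the median of all genes. List medians with MPA lie between -0.45 and -0.08, and with NET-A between -0.32 and 0.24.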

How the data were processed

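RNA of 16 mouse aortas, 4 per group, was labelled with Cy3 and hybridised to one-colour Agilent arrays, 100 ng per sample per the labels. Per the file headers, each spot's intensity came from Agilent Feature Extraction, version 10.7.1.1 for the MPA slides and version 11.0.1.1 for the NET-A slides, with background subtracted and probes placed on mm9. The deposited intensity carried no scaling from array to array. The authors' series table, also deposited, holds log2 values; its scale, centring and direction are not given in the sources used here, its column medians were -0.027 to 0.015, and its columns matched quantile-normalized arrays centred on each probe's median (r from 0.988 to 1.00).

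Spots flagged as outliers were left out (1802 probe values, 0.274%). The log2 of the processed signal less the array's 75th percentile was averaged over the spots of a probe. A gene entered a comparison when its main probe was well above background on at least 4 of 8 arrays. Each progestin was compared with its placebo group by limma 3.58.1 in R 4.3.3 (lmFit, eBayes, two-sided, Benjamini-Hochberg over all genes kept, threshold 0.05). On simulated data for the NET-A comparison (21179 genes), 41% of genes changed by 1 on the log2 scale and 77% of those changed by 2 were called. The number of arrays limits the precision.

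The 8 genes, the related lists and the rule for named genes were chosen with earlier results of these data known. The text names the 8 genes with all probes, the related genes measured on all arrays or with the largest changes, and the genes most like each gene (up to 3); a few items that the rule names are not reported here. Alternatives were quantile normalization, normexp (offset 50; on the median spot signal for NET-A files, which hold no mean signal), other filters, the mean of all probes, the series table, slide and replicate blocks, and leaving out each array. Replicate numbers were not taken as pairs: same-numbered arrays correlated from -0.23 to 0.23 with MPA and from -0.33 to 0.33 with NET-A. With NET-A the values followed the slide. Treated and placebo arrays on one slide correlated from 0.14 to 0.46, and those on different slides from -0.35 to 0.13. With MPA these ranges were -0.23 to 0.26 and -0.26 to 0.20. The main fits held no term for the slide, which entered only as the block among the alternatives.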

Additional observations from a re-analysis of the deposited data

Results flagged for a closer look

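Single arrays stood far from the other 3 of their group in 8 of 48 groups checked. For probes other than the main one, a group was checked if at least 1 of its arrays was well above background. The groups also share arrays, so the count is not set against a chance rate. On placebo replicate 3 of the MPA experiment, the downstream Mbp probe read 1.21 (others -2.69 to -2.22), Cnp 1.28 (others 0.72 to 0.79) and the second Gpm6b probe -2.69 (others -6.04 to -5.82, not well above background). Mag read 2.32 on MPA replicate 4 (others 1.52 to 1.62) and 1.20 on placebo replicate 4 (others 2.10 to 2.23), 2 arrays of slide 2. Mbp read 1.37 on MPA replicate 1 (others 0.61 to 0.68). On NET-A arrays, Gpm6b read -0.51 on replicate 3 (others near -0.35), and the second Mag probe read -2.14 on replicate 1 (others -3.10 to -3.05).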

How the results depend on the processing

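The number of genes called with NET-A was 0 in all 17 alternatives run. With MPA it was 1 with the slide as a block (S100a8, 2.69 ± 0.22, adjusted p = 0.0333, limma) and 0 in the other 16. In the difference between the responses it was 1 with the replicate block (Sall4, adjusted p = 0.0165) and 0 to 1 when single arrays were left out, the 1 coming without NET-A replicate 1 (Fam107a, adjusted p = 0.0084). These 3 genes were chosen after their values were seen, and the cause was not tested. With the replicate number as a block, 0 genes were called in either comparison with placebo. The block, which leaves a difference of means as it is, gave Prx with MPA a standard error of 0.21, against 0.38. Genes with an unadjusted p under 0.05 numbered 4295 with MPA, 550 with NET-A and 4308 in the difference under normexp correction, against 954, 1319 and 1038. None of the 8 genes passed with NET-A in any alternative, with a lowest adjusted p of 0.520, for Mag. The median pair correlation was 0.13 with slide and group means removed, against 0.03. Counts of lower genes in every setting and the Mbp probes without single arrays were added after seeing the data. Within slides, Mbp with MPA was 1.27 and -0.38, and Sox10 0.30 and -0.68. Normexp moved Pmp22 with MPA to -0.55, and averaging all probes moved Erbb3 to -0.06. Dim probes of Sox10, Erbb3 and Mbp limit what can be said of them.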
